A study of Saccharomyces cerevisiae with 4 samples.

Results

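The 10 genes studied belong to sphingolipid synthesis and its control in budding yeast: LCB1, LCB2, TSC10, SUR2, LAG1, LAC1, LIP1, ORM1, ORM2 and YDC1. They were taken by gene symbol from the deposited expression table, where all 10 were found among 5897 genes. The stress libraries (n = 2) came from the industrial Saccharomyces cerevisiae strain CY grown at 36 °C with 10% glucose, and the non-stress libraries (n = 2) from the same strain at 30 °C with 2% glucose. All cultures were shaken for 10 h in yeast extract and peptone medium, and polyadenylated RNA was sequenced. The comparison asked how transcripts differed between ordinary growth and heat combined with high sugar, in a study whose title is about tolerance genes and the fermentation of xylose. Temperature and glucose differed between the same groups and cannot be told apart.

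Sphingolipids are membrane lipids built on a long-chain base. In yeast, serine palmitoyltransferase joins serine to palmitoyl-CoA in the endoplasmic reticulum, a reductase and a hydroxylase turn the product into dihydrosphingosine and phytosphingosine, and ceramide synthase adds a very long chain fatty acid. The Orm proteins bind serine palmitoyltransferase and restrain it until kinases of the Ypk family phosphorylate them, and ceramidases split ceramide back into base and fatty acid. In yeast, heat is known to raise long-chain bases and ceramides transiently.

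Values are FPKM, fragments scaled by length and by the mapped fragments of a library, so levels of different genes can roughly be set side by side. The length that best matched low values was 36 or 37 bases below the coding length. Levels of different genes also carry any difference in mapping between them, which was not tested. Nothing in the labels says that the 2 libraries of a group came from separate cultures, so the p-values reflect no more than the spread of these samples, which may be technical. The spacing of low FPKM values put the depth between 18100000 and 18800000 fragments per library, and thus between 692 and 9800 fragments lay behind each value of the 10 genes. Cytosolic ribosomal protein genes held 1.54% and 1.57% of the summed FPKM in the stress libraries, against 22.5% and 23.7% in the non-stress libraries. FPKM is a share of the library, so this difference bears on every small change below, and its part was measured by rescaling. FBP1, a gluconeogenic gene that glucose represses, was at 3920 and 3814 FPKM in the libraries labelled 10% glucose and at 10.35 and 10.37 FPKM in those labelled 2% glucose. Growth phase and the glucose left at 10 h were not tested, and they cannot be told apart from the labelled conditions. In bulk RNA, fewer cells with a transcript and less of it per cell cannot be told apart.

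The subunits of serine palmitoyltransferase, the hydroxylase SUR2 and the ceramide synthase gene LAC1 were lower under stress, and the dihydroceramidase YDC1 was higher. In the FPKM as deposited, TSC10, LAG1, LIP1, ORM1 and ORM2 differed by less than 1.4-fold. Of the 10 genes, 3 were higher, 6 lower and 1 not past an adjusted p of 0.05 (limma across all genes, Benjamini-Hochberg). These counts moved with the scaling, to 1 higher and 6 lower after rescaling to equal FPKM sums. They were 1 higher and 9 lower when ribosomal protein genes were left out of library totals. Quantile normalization and median centring each gave 3 higher and 5 lower. Over all 5784 genes tested, 87.7% passed that threshold, 39.8% higher and 47.9% lower under stress, so the share of these genes that changed is near the background. The median log2 fold change of the 10 was -0.31, beside -0.14 over all genes tested. A change of at least 2-fold on the log2 scale was estimated for 5 of the 10, beside 46% of all genes tested. The libraries of the groups did not overlap for 9 of the 10, beside 93.8% of all genes. All 10 were far above the filter of 1 FPKM in every library.

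**Figure D1:**
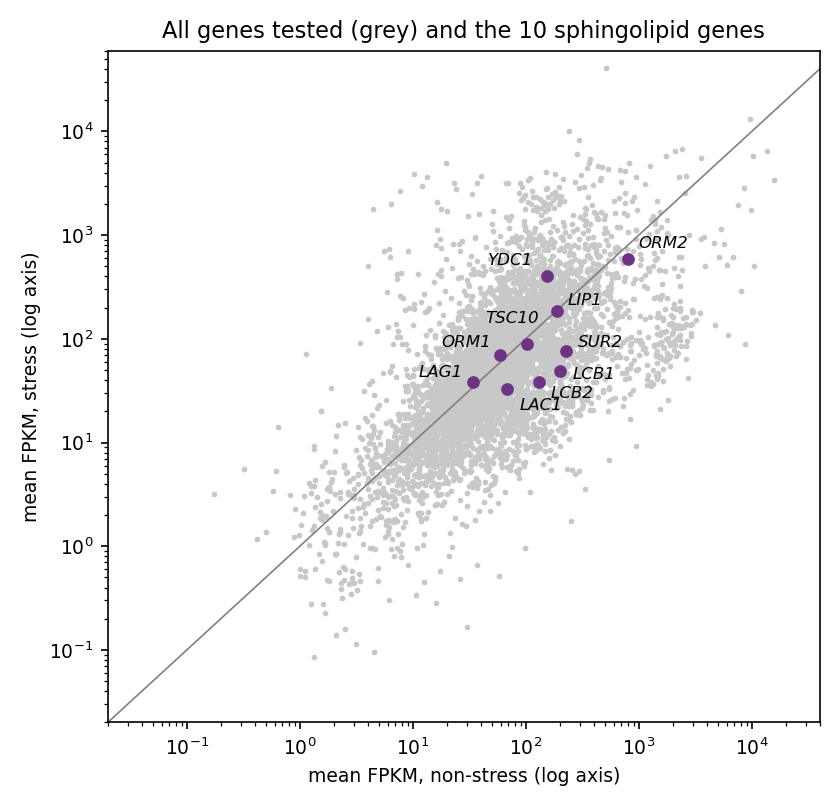
Mean FPKM in stress (y axis) against non-stress libraries (x axis), both on log axes, for 5773 genes in grey and the 10 sphingolipid genes in purple, with the line of equal values; 11 genes with a group mean of at most 0.02 FPKM are not drawn. LCB1, LCB2, SUR2 and LAC1 lie below the line and YDC1 above it, while the other genes lie close to it.

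The catalytic subunits of serine palmitoyltransferase fell. LCB1 (YMR296C, chromosome XIII, 859215 to 860891, minus strand, R64) was at 47.1 and 51.2 FPKM in the stress libraries, against 202.8 and 202.5 FPKM in the non-stress libraries. Both stress libraries lay far below both non-stress libraries. The mean was 4.13-fold higher in non-stress libraries, with a log2 change of -2.02 ± 0.060 (SE; limma adjusted p = 1.32e-09). LCB2 (YDR062W, chromosome IV, 576474 to 578159, plus strand), the subunit that carries the cofactor pyridoxal phosphate, was at 38.9 and 38.6 FPKM under stress and at 126.5 and 132.9 FPKM without stress. The groups were again well apart, with a log2 change of -1.72 ± 0.058 (SE; limma adjusted p = 3.42e-09). LCB1 stood above 50.7% of tested genes in stress and above 85.3% in non-stress libraries. The summed FPKM of the 2 genes was 87.9 ± 2.72 in stress and 332.3 ± 4.27 in non-stress libraries (SD, n = 2). TSC3, the small subunit that activates the enzyme, was at 58.7 and 57.0 FPKM in stress and at 154.0 and 156.1 FPKM in non-stress libraries, a log2 change of -1.41 ± 0.054 (SE; limma adjusted p = 8.20e-09). All 3 subunits therefore had separated groups, beside 93.8% of all genes tested. All 3 were lower, beside 47.9% of all genes, and this direction held under each of the 4 other scalings.

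The steps that turn the first product into long-chain bases differed from each other. TSC10 (YBR265W, chromosome II, 738582 to 739544, plus strand), the reductase that makes dihydrosphingosine, was at 89.3 and 90.6 FPKM in stress and at 95.01 and 109.0 FPKM in non-stress libraries. The stress libraries were lower by a small margin, and the non-stress pair differed more between themselves than the nearest libraries of the 2 groups did. Its log2 fold change of -0.18 (95% interval -0.34 to -0.01) gave a limma adjusted p of 0.0421. That call was lost after quantile normalization (limma adjusted p = 0.215) and with no filter (0.0909), and after median centring the change was 0.01. Without stress replicate 1 or 2 the change was -0.17 or -0.19. Without non-stress replicate 1 or 2 it was -0.27 or -0.08. SUR2 (YDR297W, chromosome IV, 1056551 to 1057600, plus strand), the hydroxylase that makes phytosphingosine, was at 73.8 and 79.7 FPKM in stress and at 223.4 and 227.2 FPKM in non-stress libraries. The groups did not come near each other. SUR2 fell by 1.54 ± 0.057 (SE) on the log2 scale (limma adjusted p = 6.53e-09).

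**Figure D2:**
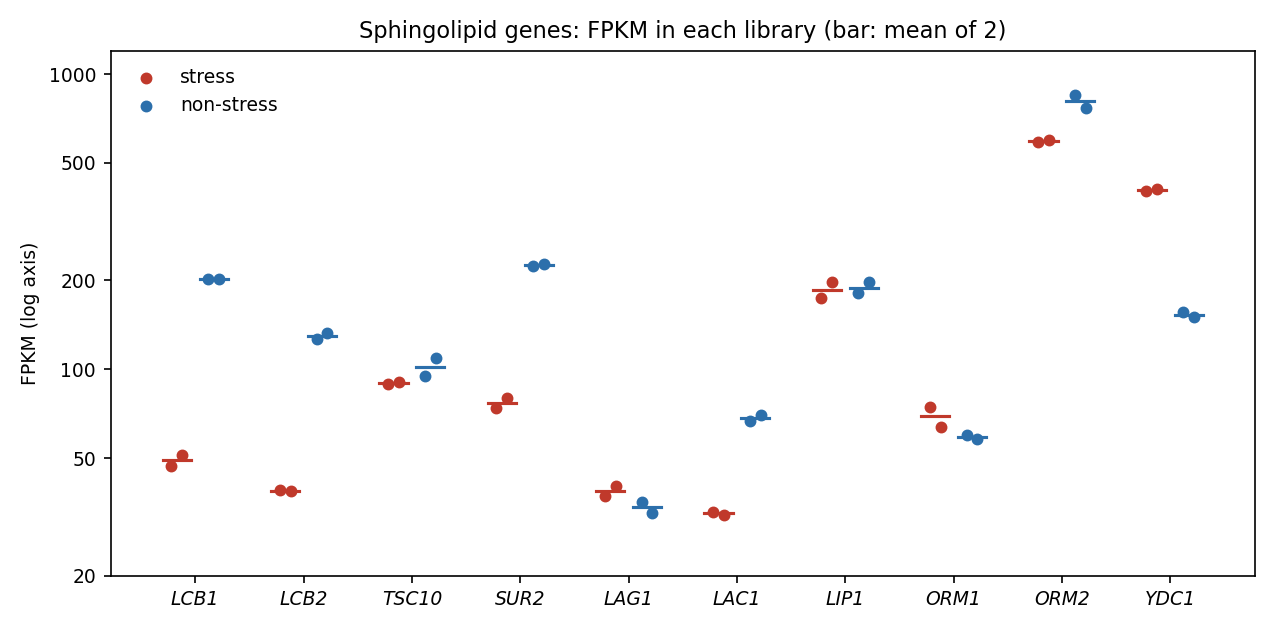
FPKM (log axis) of the 10 genes in each of the 2 stress (red) and 2 non-stress libraries (blue), with a bar at each mean. LCB1, LCB2, SUR2 and LAC1 have stress libraries well below the non-stress ones, YDC1 has them above, and the libraries of LIP1 overlap.

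Ceramide synthase has the alternative catalytic subunits Lag1 and Lac1 and the small subunit Lip1, which both need. LAG1 (YHL003C, chromosome VIII, 100648 to 101883, minus strand) was at 37.3 and 40.3 FPKM in stress and at 35.5 and 32.7 FPKM in non-stress libraries. The stress libraries were slightly higher, with a log2 fold change of 0.18 (95% interval 0.01 to 0.35; limma adjusted p = 0.0464). That call was lost with equal FPKM sums (limma adjusted p = 0.297) and with no filter (0.079). When ribosomal protein genes were left out of library totals the change was -0.25. Without stress replicate 1 or 2 the change was 0.24 or 0.13. Without non-stress replicate 1 or 2 it was 0.24 or 0.12. LAC1 (YKL008C, chromosome XI, 427295 to 428551, minus strand) was at 32.9 and 32.2 FPKM in stress and at 66.9 and 69.8 FPKM in non-stress libraries. Here the groups were well apart, with a log2 change of -1.05 ± 0.063 (SE; limma adjusted p = 2.27e-07). LIP1 (YMR298W, chromosome XIII, 863819 to 864271, plus strand) was at 174.6 and 197.1 FPKM in stress and at 180.9 and 197.7 FPKM in non-stress libraries. Its groups overlapped, and the log2 fold change of -0.03 had a 95% interval of -0.19 to 0.14 (limma adjusted p = 0.724). The direction for LIP1 turned with the scaling: it was -0.47 and past the threshold when ribosomal protein genes were left out of library totals, and 0.16 after median centring.

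LAG1 and LAC1 had the opposite order in the groups, with the fall of LAC1 the one of the 2 changes that held under every alternative. The ratio of LAG1 to LAC1 FPKM was 1.13 and 1.25 in the stress libraries and 0.53 and 0.468 in the non-stress libraries. LAG1 was thus the more abundant of the pair in both stress libraries and LAC1 in both non-stress libraries. On the log2 scale the ratio was 0.25 ± 0.101 in stress and -1.005 ± 0.126 in non-stress libraries (SD, n = 2), a difference of 1.26. Multiplying a library by a constant leaves such a ratio as it is, but quantile normalization does not: from the fits on log2(FPKM + 1), LAG1 was at 0.18 as deposited and 0.43 after it, and LAC1 at -1.05 and -0.86. The exact two-sided permutation test over samples gave p = 0.333, the smallest that 2 libraries against 2 allow. The coding sequences of the pair are 69.4% identical over 1232 aligned bases and share no window of 50 bases. The summed FPKM of the pair was 71.3 ± 1.58 in stress and 102.4 ± 0.0849 in non-stress libraries (SD, n = 2).

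**Figure D3:**
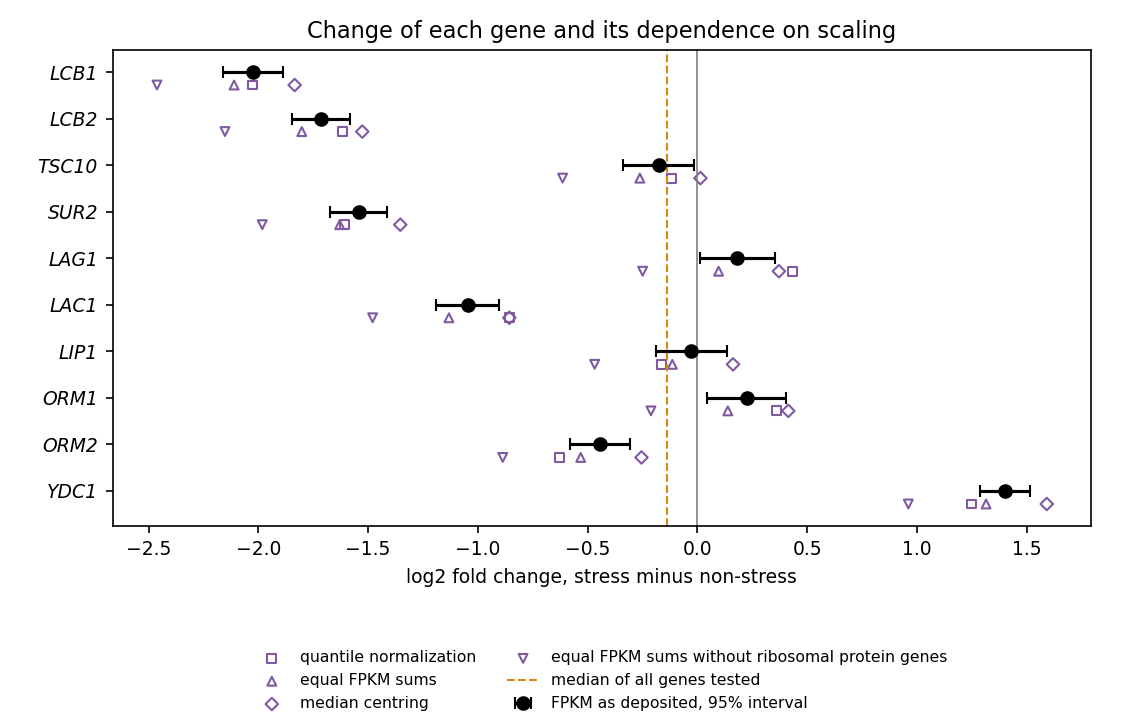
Log2 fold change (stress minus non-stress, x axis) of each gene from the FPKM as deposited with its 95% interval (black) and under 4 other scalings (open symbols); the dashed line is the median of all genes tested, at -0.14. The open symbols of TSC10, LAG1, LIP1 and ORM1 fall on both sides of 0, and those of the other 6 genes keep to 1 side.

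The inhibitors of serine palmitoyltransferase changed little beside the enzyme. ORM2 (YLR350W, chromosome XII, 828730 to 829380, plus strand) was the most abundant of the 10 genes in every library, at 587.6 and 598.3 FPKM in stress and 849.0 and 767.2 FPKM in non-stress libraries. Both stress libraries were lower, and the gap between the groups was larger than that within either. Its log2 fold change was -0.44 ± 0.059 (SE; limma adjusted p = 7.82e-05). Under the 4 other scalings it lay between -0.25 (median centring) and -0.89 (ribosomal protein genes left out of library totals). ORM1 (YGR038W, chromosome VII, 560682 to 561350, plus strand) was at 74.6 and 63.97 FPKM in stress and at 59.9 and 58.1 FPKM in non-stress libraries. The stress libraries were higher but had a coefficient of variation of 10.9%, where counting alone would give about 3.56%. Spread beyond counting was not particular to ORM1. The non-stress libraries of ORM2 had a coefficient of variation of 7.16%, where counting alone would give about 1.04%. The log2 fold change of ORM1 was 0.22 (95% interval 0.05 to 0.40; limma adjusted p = 0.0231). The ORM1 call was lost with equal FPKM sums (limma adjusted p = 0.124) and with no filter (0.0681). When ribosomal protein genes were left out of library totals the change was -0.21. Without stress replicate 1 or 2 the change was 0.115 or 0.33. Without non-stress replicate 1 or 2 it was 0.25 or 0.20. The ratio of ORM2 to ORM1 FPKM was 7.87 and 9.35 in stress and 14.2 and 13.2 in non-stress libraries (exact permutation p = 0.333, the smallest possible). ORM2 thus stayed the main transcript of the pair in all 4 libraries. The pair is 68.7% identical over 642 aligned coding bases and shares no window of 50 bases.

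YDC1, the dihydroceramidase, rose. YDC1 (YPL087W, chromosome XVI, 383455 to 384408, plus strand) was at 402.6 and 409.3 FPKM in the stress libraries and at 156.2 and 149.9 FPKM in the non-stress libraries. Both stress libraries were far above both non-stress libraries. The mean was 2.65-fold higher under stress, with a log2 change of 1.40 ± 0.050 (SE; limma adjusted p = 4.96e-09). YPC1, its copy with a preference for phytoceramide, was at 70.1 and 75.5 FPKM in stress and at 15.9 and 18.03 FPKM in non-stress libraries. YPC1 rose 4.29-fold, with a log2 change of 2.04 ± 0.082 (SE; limma adjusted p = 1.17e-08). The ratio of YDC1 to YPC1 was 5.75 and 5.42 in stress and 9.85 and 8.31 in non-stress libraries (exact permutation p = 0.333, the smallest possible), so YDC1 was the main transcript in every library.

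**Figure D4:**
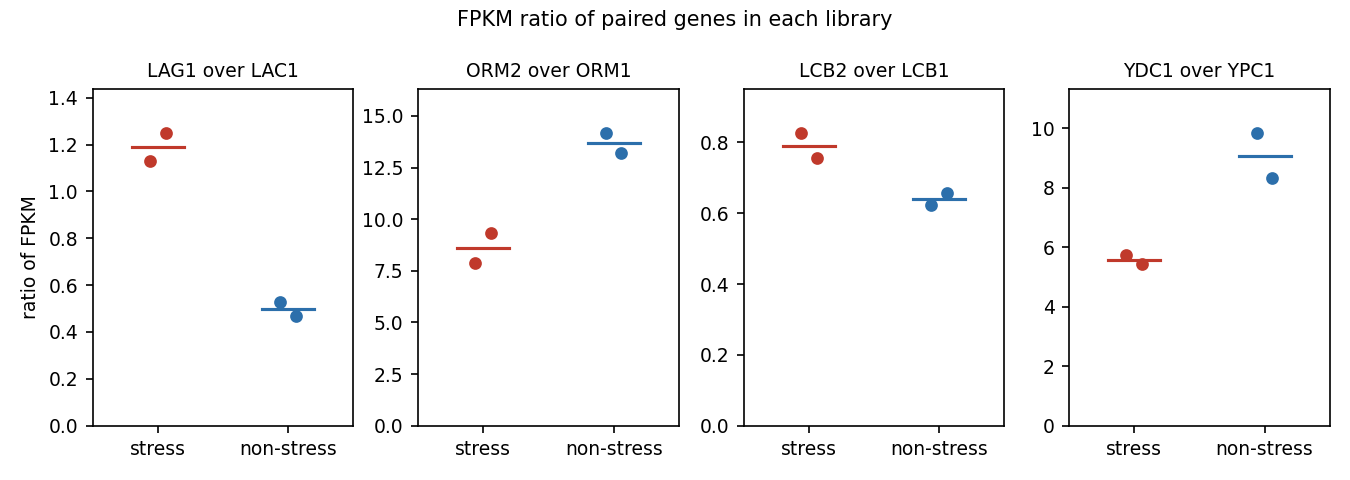
Ratio of FPKM of 4 gene pairs in each stress (red, left) and non-stress library (blue, right), with a bar at each mean; axes start at 0. LAG1 over LAC1 is above 1 in both stress libraries and below 1 in both non-stress libraries. The groups do not overlap for any of the 4 ratios, beside 93.8% of all genes taken singly.

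In stress libraries the order of mean FPKM was ORM2, YDC1, LIP1, TSC10, SUR2, ORM1, LCB1, LCB2, LAG1 and LAC1. The libraries of SUR2 overlapped with those of ORM1, and those of LCB2 with those of LAG1. In non-stress libraries the order was ORM2, SUR2, LCB1, LIP1, YDC1, LCB2, TSC10, LAC1, ORM1 and LAG1, and no neighbours overlapped. SUR2 stood above 63.8% of tested genes in stress and above 87.1% in non-stress libraries, and YDC1 above 91.5% in stress and above 80.1% in non-stress libraries. Within the enzyme, LCB2 was below LCB1 in every library, at a ratio of 0.827 and 0.755 in stress and 0.624 and 0.656 in non-stress libraries (exact permutation p = 0.333).

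Promoter letters are shown for the 2 catalytic subunits, the members that fell most, and for the 2 ceramidase genes, which rose. Each window is the 300 bases that end 100 bases before the start codon in the R64 genome, and 5 motifs were searched on both strands. Capitals mark the stress response element AGGGG, which the factors Msn2 and Msn4 bind (CCCCT on the other strand), and the pleiotropic drug response element TCCGNGGA, which Pdr1 and Pdr3 bind. None of the 4 windows overlaps another coding sequence. The windows are chrXIII:860992-861291 (minus strand) for LCB1, chrIV:576074-576373 (plus strand) for LCB2, chrXVI:383055-383354 (plus strand) for YDC1 and chrII:595715-596014 (plus strand) for YPC1.
LCB1: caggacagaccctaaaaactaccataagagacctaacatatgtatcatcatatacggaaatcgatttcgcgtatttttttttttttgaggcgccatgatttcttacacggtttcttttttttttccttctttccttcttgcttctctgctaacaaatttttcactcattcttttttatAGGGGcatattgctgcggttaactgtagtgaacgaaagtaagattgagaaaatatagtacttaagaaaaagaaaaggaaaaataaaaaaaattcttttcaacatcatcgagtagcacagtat
LCB2: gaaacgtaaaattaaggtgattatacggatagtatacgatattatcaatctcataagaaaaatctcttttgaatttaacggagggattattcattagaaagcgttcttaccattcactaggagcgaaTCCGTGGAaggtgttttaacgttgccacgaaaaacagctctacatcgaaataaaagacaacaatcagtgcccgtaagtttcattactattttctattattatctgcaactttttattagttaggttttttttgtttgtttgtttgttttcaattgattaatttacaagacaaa
YDC1: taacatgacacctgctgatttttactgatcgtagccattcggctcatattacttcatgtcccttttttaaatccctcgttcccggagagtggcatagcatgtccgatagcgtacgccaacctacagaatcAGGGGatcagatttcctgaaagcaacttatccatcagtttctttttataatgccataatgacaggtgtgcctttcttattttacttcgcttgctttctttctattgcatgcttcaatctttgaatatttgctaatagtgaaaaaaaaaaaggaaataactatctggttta
YPC1: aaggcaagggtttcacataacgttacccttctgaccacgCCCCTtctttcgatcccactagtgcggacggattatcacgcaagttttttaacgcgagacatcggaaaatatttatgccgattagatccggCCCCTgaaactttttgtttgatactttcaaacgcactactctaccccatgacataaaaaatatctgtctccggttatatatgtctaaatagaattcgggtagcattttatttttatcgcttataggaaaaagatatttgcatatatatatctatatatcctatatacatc

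AGGGG was found in the windows of 4 of the 10 genes, LCB1, LAG1, LIP1 and YDC1, beside 23.9% of the windows of 5780 tested genes. The 4 include a gene that fell, a gene that rose, LAG1 with its small change and LIP1. In YDC1 it lies 270 to 266 bases before the start codon. YPC1 holds it on the opposite strand at the same distance and again at 361 to 357. Of the genes with the largest changes in the further lists, HFD1, ELO2 and ELO3 had no AGGGG in their windows. In LCB1 it lies 222 to 218 bases before the start codon. TCCGNGGA was found in LCB2 alone of the 10, 273 to 266 bases before the start codon, and in 2.09% of all windows. CATGTG, the core of the inositol-choline element, was found in LIP1 alone of the 10, beside 9.15% of all windows. That LIP1 match, 376 to 371 bases before the start codon, lies within the coding sequence of the neighbouring gene PRC1. CACGTG, which Cbf1 binds, and GAANNTTC, a part of the heat shock element, were found in 0 of the 10, beside 4.5% and 12.3% of all windows. The HFD1 window held GAANNTTC, 191 to 184 bases before the start codon. The ELO2 window held CATGTG, 167 to 162 bases before the start codon. Of the LIP1 window 102 bases, and of the TSC10 window 188 bases, lie in a neighbouring coding sequence. A match is only a match of letters and shows no binding.

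The rest of the pathway was read from the same fit as 6 lists of 43 genes in all, each of which was in the table and tested. Under stress 23 of them were higher and 17 lower, and 3 did not pass, beside 39.8% higher and 47.9% lower of all genes tested. The share that passed is thus near the 87.7% of all genes. When ribosomal protein genes were left out of library totals, 12 were higher and 22 lower, so the smaller rises depend on scaling, and 29 of the 43 kept their direction under all 4 other scalings. Under all 4 other scalings 12 were higher and 11 lower with an adjusted p of at most 0.05. Of the 3 further ceramide genes, SCS7, which hydroxylates the fatty acid of ceramide, had a log2 change of 0.46 ± 0.064 (SE; limma adjusted p = 0.000118), but 0.01 when ribosomal protein genes were left out of library totals.

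Genes that make very long chain fatty acids, the partners of the base in ceramide, had 5 of 5 members lower, or 3 of 5 after median centring, beside 47.9% of all genes tested, with a median log2 fold change of -0.54 beside -0.14 over all genes. The list held the largest falls of the 53 genes. The elongase ELO2 was at 6.73 and 5.63 FPKM in stress and at 141.7 and 140.6 FPKM in non-stress libraries, a log2 change of -4.31 ± 0.087 (SE; limma adjusted p = 1.09e-10). ELO3, the elongase of the last steps, was at 11.6 and 13.2 FPKM in stress and at 212.5 and 214.9 FPKM in non-stress libraries. ELO3 fell by 4.01 ± 0.073 (SE) on the log2 scale (limma adjusted p = 5.85e-11). Both genes thus had stress libraries more than 10-fold below the non-stress ones. The dehydratase PHS1 of the same cycle fell by 0.54 ± 0.055 (SE) on the log2 scale. The reductase genes IFA38 and TSC13 had values of -0.28 and -0.12, and after median centring that of TSC13 turned to 0.07 and IFA38 was at -0.09 and no longer past the threshold. The call for TSC13 was also lost without stress replicate 1 or 2 (limma adjusted p = 0.147 or 0.1703).

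Genes that turn ceramide into complex sphingolipids were lower for 5 of 7 and higher for 1, beside 47.9% lower and 39.8% higher of all genes tested, with a median log2 fold change of -0.32 beside -0.14 over all genes. After median centring or quantile normalization 3 of 7 were lower. AUR1, the catalytic subunit that adds inositol phosphate to ceramide, was at 61.6 and 60.6 FPKM in stress and at 139.1 and 143.9 FPKM in non-stress libraries. AUR1 had a log2 change of -1.20 ± 0.054 and IPT1, which adds the last inositol phosphate, of -1.17 ± 0.089 (SE; limma adjusted p = 2.87e-08 and 1.22e-06). SUR1, a mannosyltransferase, was at 248.5 and 244.0 FPKM in stress and at 459.5 and 363.5 FPKM in non-stress libraries, a log2 fold change of -0.73 ± 0.094 (SE). KEI1, the partner subunit of Aur1, did not pass at -0.11, but did at -0.15 without non-stress replicate 1 (limma adjusted p = 0.0263), at -0.20 with equal FPKM sums (0.00851) and at -0.55 when ribosomal protein genes were left out of library totals (5.78e-06). CSG2, the partner of Sur1, had a value of 0.43, and it was -0.01 when ribosomal protein genes were left out of library totals.

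In the branch of phosphorylated long-chain bases 3 of 7 genes were higher and 3 lower, a share near that of all genes tested (39.8% and 47.9%), with a median log2 fold change of -0.13. Of these 7, 1 was higher and 5 lower when ribosomal protein genes were left out of library totals. HFD1, the aldehyde dehydrogenase that acts after the lyase Dpl1 has split the base, was at 579.8 and 585.7 FPKM in stress and at 80.5 and 80.2 FPKM in non-stress libraries. It rose 7.25-fold, the largest rise of the 53 genes (log2 fold change 2.84 ± 0.048, SE; limma adjusted p = 3.82e-11). The phosphatase genes LCB3 and YSR3 were lower, with log2 changes of -0.90 ± 0.071 and -0.68 ± 0.072 (SE). DPL1 itself had a log2 fold change of 0.16, which was -0.28 when ribosomal protein genes were left out of library totals. Its call was lost without stress replicate 1 or 2 (limma adjusted p = 0.137 or 0.0790).

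**Figure D5:**
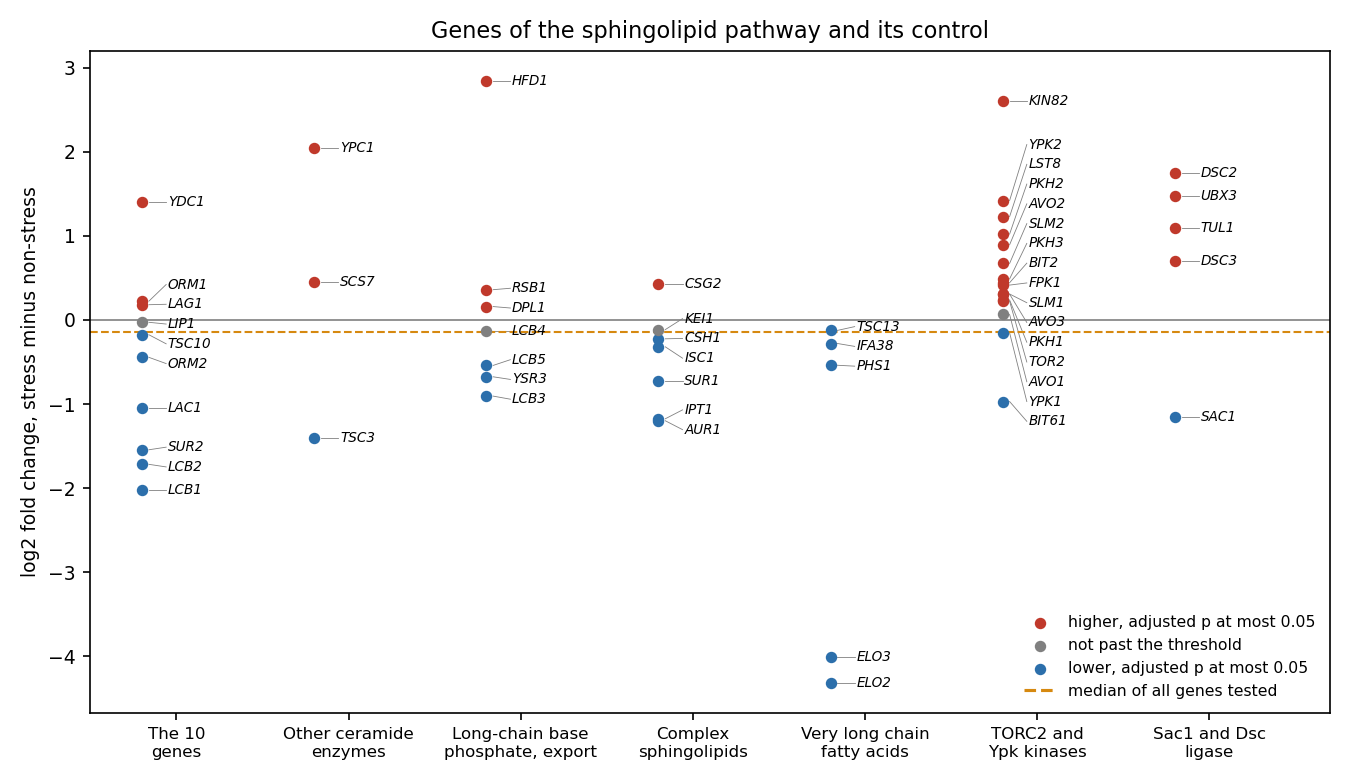
Log2 fold change (stress minus non-stress, y axis) of the 10 genes and of 43 further genes in 6 lists; red is higher, blue lower and grey not past an adjusted p of 0.05, and the dashed line is the median of all genes tested, at -0.14. ELO2 and ELO3 lie lowest, at -4.31 and -4.01, HFD1 and KIN82 highest, at 2.84 and 2.60, and 4 genes of the Dsc ligase lie above 0.

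Genes of TOR complex 2, its partners and the kinases that act after it, among them those that phosphorylate the Orm proteins, were higher for 13 of 16, lower for 2, beside 39.8% higher and 47.9% lower of all genes tested, with a median log2 fold change of 0.43 beside -0.14 over all genes. When ribosomal protein genes were left out of library totals, 6 were higher and 4 lower. Under all 4 other scalings 6 remained higher and 1 lower. The lower gene was BIT61, with a log2 change of -0.97 ± 0.087 (SE; limma adjusted p = 4.55e-06). KIN82, a kinase of lipid flippases, was at 195.1 and 194.3 FPKM in stress and at 32.3 and 30.2 FPKM in non-stress libraries, a log2 change of 2.60 ± 0.059 (SE; limma adjusted p = 2.21e-10). YPK2, the less abundant copy of YPK1 in non-stress libraries, was at 122.5 and 127.0 FPKM in stress and at 48.9 and 43.2 FPKM in non-stress libraries (log2 fold change 1.42 ± 0.070, SE; limma adjusted p = 5.43e-08). YPK1 had a value of -0.15, with a direction that turned after median centring (0.04). Without stress replicate 1, stress replicate 2 or non-stress replicate 1 its limma adjusted p was 0.0858, 0.149 or 0.0586. LST8, a subunit of both TOR complexes, had a log2 change of 1.23 ± 0.055 (SE; limma adjusted p = 2.52e-08).

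In the list of Orm partners and turnover, the 4 genes of the Dsc ubiquitin ligase, which marks Orm2 for degradation, were all higher, beside 39.8% of all genes tested, and this held under each of the 4 other scalings. DSC2 was at 167.3 and 175.3 FPKM in stress and at 53.5 and 47.4 FPKM in non-stress libraries, a log2 change of 1.75 ± 0.069 (SE; limma adjusted p = 1.04e-08). UBX3 had a log2 fold change of 1.47 ± 0.060, TUL1 of 1.10 and DSC3 of 0.70. SAC1, a lipid phosphatase that forms a complex with serine palmitoyltransferase and the Orm proteins, was at 62.2 and 63.6 FPKM in stress and at 142.1 and 140.8 FPKM in non-stress libraries. SAC1 fell by 1.16 ± 0.053 (SE) on the log2 scale (limma adjusted p = 3.23e-08).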

How the data were processed

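The deposited table gives FPKM, per the file headers, for every gene in each library, to 2 decimals. HISAT2 2.1.0, Bowtie2 2.2.5, RSEM 1.2.8 and genome build R64 are listed, without roles, in the submitters' processing notes, and read filters are not given in the sources used here. Reads of strain CY were thus set against the S288C reference, and the effect of strain differences was not tested. The 10 genes have identical coordinates in the table and in the R64 annotation and no 50-base window in common with another coding sequence.

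Groups were compared with limma 3.58.1 under R 4.3.3, using lmFit and eBayes with a trend, on log2(FPKM + 1), a pseudocount of 1, which understates changes of low genes. Genes with at least 1 FPKM in at least 2 libraries were kept (5784 of 5897), with 2 residual and 6.51 prior degrees of freedom. The test was two-sided with Benjamini-Hochberg adjustment over all genes and a threshold of 0.05. Plain folds are ratios of mean FPKM. Ratios of 2 genes were compared by exact permutation (scipy 1.17.1). Identity came from global alignment (Biopython 1.88). Depth was the value at which low FPKM became whole reads (between 98.5% and 100% of low values within 0.1). The limma step was tested on simulated data with 200 of 5784 genes changed, a far smaller share than the 87.7% called here. It called 43.9%, 79.1% and 97.0% of simulated log2 changes of 0.5, 1 and 2, and 4.55% of its calls were false. The simulated spread was the larger of the 2 group SDs of each gene, shuffled across genes. These rates need not hold for the real fit, which uses the trend of spread with level. Named genes were the 10, TSC3, YPC1 and up to 3 changed genes of each further list with the largest change and a mean of at least 5 FPKM; others were named after their values were seen. Members and lists were chosen with earlier results of these data known. The alternatives tried were 4 other scalings, 2 filters, a replicate block, the omission of each library in turn, a pseudocount of 0.1 and a threshold of 0.01.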

Additional observations from a re-analysis of the deposited data

How the results depend on the processing

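LCB1, LCB2, SUR2, LAC1, ORM2 and YDC1 kept their direction and stayed past the threshold under every alternative tried. The calls of TSC10, LAG1 and ORM1 did not hold under all of them. The number of the 10 genes that were higher was 3 as reported, 1 after rescaling to equal FPKM sums, 1 when ribosomal protein genes were left out of library totals, 1 with no filter, 1 at a threshold of 0.01, and between 1 and 2 with a library left out. The first 2 lower every stress value relative to the non-stress values by construction, and for the others the cause was not tested. Of the 43 further genes, 12 were higher when ribosomal protein genes were left out of library totals, against 23 as reported. The median of all genes moved by 0.22 (log2) under quantile normalization, 0.19 under median centring, -0.08 under equal sums and -0.43 when ribosomal protein genes were left out of library totals. Among the genes named in the report, directions turned for TSC10 (0.0137) and LIP1 (0.16) under median centring, for LIP1 with a library left out (-0.1142 to 0.0592), for KEI1 (0.0754), TSC13 (0.0656) and YPK1 (0.0379) under median centring, and for LAG1 (-0.25), ORM1 (-0.21), DPL1 (-0.28) and CSG2 (-0.009) when ribosomal protein genes were left out of library totals. The 4 pair ratios kept their direction under a pseudocount and with each library left out.

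Replicate numbers are shared by the groups, but same-numbered libraries did not deviate together (r = -0.005 across genes). Such a correlation cannot show whether same-numbered libraries were handled together, so pairing stays unknown. With the replicate number as a block, 2298 genes were higher and 2775 lower. LAG1 lost its call (adjusted p = 0.0532), 2 of the 10 genes were higher and 6 lower, and no other call among the 10 changed. With 2 libraries a group, changes as small as those of TSC10, LAG1, LIP1 and ORM1 are at the limit of what these data resolve.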

Other observations

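Several sums and ratios were chosen after the values were seen and carry no test beyond the exact permutation p of 0.333 that 2 libraries against 2 allow. The summed FPKM of ORM1 and ORM2 was 7.70 and 7.37 times that of LCB1 and LCB2 in the stress libraries, against 2.76 and 2.46 times in the non-stress libraries. The reductase TSC10 was at 1.04 and 1.01 times the sum of LCB1 and LCB2 in stress, against 0.289 and 0.325 times in non-stress libraries. TSC3 was at 1.25 and 1.11 times LCB1 in stress and at 0.759 and 0.771 times in non-stress libraries. The catalytic ceramide synthase transcripts, LAG1 and LAC1 together, were at 0.402 and 0.368 times LIP1 in stress and at 0.566 and 0.518 times in non-stress libraries. The ceramidase transcripts YDC1 and YPC1 together were at 6.73 and 6.69 times LAG1 and LAC1 together in stress libraries, against 1.68 and 1.64 times in non-stress libraries. The groups did not overlap in any of these 5 ratios, beside 93.8% of all genes taken singly. The share over ratios of other genes was not computed. As transcript ratios, they say nothing of enzyme amounts or lipid levels. The 10 genes together held 0.147% and 0.15% of the summed FPKM in stress and 0.202% and 0.193% in non-stress libraries.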
